A study of Mus musculus with 5 samples.

Results

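The 2 mature strands of one endothelial precursor, mmu-miR-126a-3p and mmu-miR-126a-5p, were followed through mouse liver development in Ago HITS-CLIP data. This assay crosslinks RNA to the Argonaute (Ago) proteins, purifies the complexes with antibodies and sequences both the miRNAs and the target fragments they hold. The arms were picked by name from the interaction tables, in which each entry pairs a miRNA with a seed match beneath a cluster of Ago-bound reads. They are 2 of 995 listed miRNAs. The 5 tables together held 717 distinct sites of miR-126a-3p and 927 of miR-126a-5p, a site being one position on one strand. By stage, miR-126a-3p had 246, 116, 146, 379 and 192 of the 1050741, 343247, 318191, 706578 and 419394 sites of all miRNAs.

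The livers came from C57BL/6 mice of 3 embryonic stages (e12.5, e15.5 and e18.5), of postnatal day 7 (P7) and of 6 to 8 weeks (adult), and no group was given a treatment or carried an allele. Ago2 was precipitated at every stage. Ago1 antibody was added for the P7 and adult livers, so the effect of the antibody cannot be told apart from that of the postnatal stages. The labels give 1 sample a stage, so no test between stages was possible, and the intervals given here are 95% Wilson or Newcombe intervals that cover counting error only. Each embryonic table holds 2 lists of unknown origin, which were added up and not treated as replicates. The samples were whole livers, in which fewer cells of a type and less RNA per cell cannot be told apart.

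In vertebrates, miR-126 is best known as a miRNA of endothelial cells, transcribed within an intron of Egfl7, a gene for a secreted endothelial protein. The 3p arm is known to repress Spred1 and Pik3r2, inhibitors of VEGF receptor signalling to ERK and PI3K, and Vcam1, a leukocyte adhesion molecule of the vessel wall. The 5p arm is less studied and is known to repress Dlk1, a Notch ligand that restrains endothelial proliferation. Pairing with a target rests on the seed, bases 2 to 8 of the miRNA.

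The arms carry unlike seeds, which is why their sequences are shown here, with the seed in capitals.
mmu-miR-126a-3p: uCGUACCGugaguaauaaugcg
mmu-miR-126a-5p: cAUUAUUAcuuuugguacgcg
The first has 22 bases and the second 21, and both were read from the deposited tables. They map to the plus strand of GRCm38 (mm10) at chr2:26591402-26591423 for 3p and chr2:26591365-26591385 for 5p. Their hairpin, Mir126a, lies at chr2:26591357-26591429, in an intron of all 4 RefSeq transcripts of Egfl7 (chr2:26581083-26592682). The 7 bases that match the seed in a target are CGGTACG for 3p, which holds 2 CpG dinucleotides, and TAATAAT for 5p, which consists of A and T. The RefSeq table searched holds 1679 mature mouse miRNAs, and no miRNA in it other than miR-126a-3p itself has either seed. It has no entry for miR-126a-5p, so it cannot show that no other miRNA shares that seed.

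The target fragments of 10 sites described below show what the matches look like. They were chosen after their values were seen, to include 3′UTR and coding sites and the genes Adam9 and Golph3, which had sites of both arms. Capitals mark the bases that pair with the seed and, in 7mer-A1 and 8mer sites, the A opposite the first base of the miRNA. The positions are those listed for the match in mm10, which leave out that A.
Adam9 3′UTR, miR-126a-3p, chr8:24950109-24950115, minus strand: aagtgcacactctatGGTACGA
Golph3 3′UTR, miR-126a-3p, chr15:12349952-12349958, plus strand: acgcaggattctgctGGTACGA
Sgpp1 3′UTR, miR-126a-3p, chr12:75714487-75714493, minus strand: agaaaagaatCGGTACGc
Vcam1 3′UTR, miR-126a-3p, chr3:116110245-116110251, minus strand: gtactgtaCGGTACGg
Ttc3 coding sequence or 3′UTR, miR-126a-3p, chr16:94431817-94431823, plus strand: gaccctttttcactCGGTACGg
Adam9 3′UTR, miR-126a-5p, chr8:24949716-24949722, minus strand: aaagaagttTAATAATA
Golph3 3′UTR, miR-126a-5p, chr15:12349884-12349890, plus strand: actttcccacacTAATAATt
Sp3 3′UTR, miR-126a-5p, chr2:72937255-72937261, minus strand: gaggaccaaaaaaTAATAATA
Tpm1 coding sequence or 3′UTR, miR-126a-5p, chr9:67032506-67032511, minus strand: aagAATAATg
Ahsg coding sequence, miR-126a-5p, chr16:22892259-22892264, plus strand: ccgtggactacctcAATAATc
All 717 sites of miR-126a-3p and all 927 of miR-126a-5p held the letters of the seed type listed for them. The Adam9 and Golph3 transcripts appear under both arms, with matches at different positions of the same 3′UTR.

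The 3p arm was the more abundant in every table, and its share of the miRNA reads was highest in adult liver. In the order of age, from e12.5 on, it took 0.600%, 0.95%, 1.25%, 1.28% and 5.05% of the miRNA reads. These shares stood on 153238, 95945, 96889, 153947 and 1157140 reads. Among the listed miRNAs it ranked 17 of 745, 17 of 589, 12 of 644, 18 of 743 and 5 of 585. Between e18.5 and P7 the share was almost level, with a log2 difference of 0.04, and the step from P7 to adult was 3.95-fold. Over the total reads of the libraries, e18.5 and P7 were not level, with 0.439% and 0.761%.

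The 5p arm followed another course, with its highest share at P7. It took 0.0989%, 0.121%, 0.202%, 0.585% and 0.262% of the miRNA reads in the order of age. The reads were 25269, 12193, 15696, 70509 and 60007, and its ranks were 83, 73, 52, 33 and 39. From e18.5 to P7, where the 3p arm was level among the miRNA reads, the share of 5p was 2.90-fold higher (log2 1.54), and over total reads it was 0.0712% and 0.349%. From P7 to adult liver the arms went opposite ways, 3p being higher by 1.98 and 5p differing by -1.16 on the log2 scale after adding 1 rpm (read per 1000000 miRNA reads).

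The 2 lists of an embryonic table placed the arms at similar levels but not at equal ones. By stage, the first and the second list gave 0.721% and 0.567%, 1.41% and 0.798%, and 1.37% and 0.878% for 3p. For 5p they gave 0.136% and 0.0890%, 0.131% and 0.117%, and 0.203% and 0.197%. The P7 share of 3p, 1.28%, lay between the lists of e15.5 and between those of e18.5, so among the miRNA reads these 3 stages did not differ beyond the spread between lists. The adult share of 3p and the P7 share of 5p lay above every embryonic list.

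Over all miRNAs, a difference of at least 2-fold was common, and towards adult liver it was more often downward, both from e12.5 and from P7. From e12.5 to adult liver, 17.8% of 852 miRNAs were at least 2-fold higher, and both arms were among them, 3p by 3.07 and 5p by 1.40 on the log2 scale. The difference of 5p was below 2-fold with the numbers of copies added up (0.98) and with the first lists alone (0.95). The median over all miRNAs was -1.17. A larger difference in this direction was seen for 34 miRNAs in the case of 3p and for 105 in the case of 5p. From P7 to adult liver, 11.2% of 823 miRNAs were at least 2-fold higher, with 3p among them and 22 miRNAs above it. In the same step 44.2% were at least 2-fold lower, 5p among them, and the median was -0.83. Over the total reads of the libraries the difference of 5p was below 2-fold, with a log2 value of -0.83.

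The ratio of the arms cancels the size of the library. For each read of 5p there were 6.06, 7.87, 6.17, 2.18 and 19.3 reads of 3p in the order of age. The counting intervals were narrow, from 5.98 to 6.15 at e12.5, from 2.16 to 2.20 at P7 and from 19.1 to 19.4 in adult liver. The lists of one embryonic table differed by more than that, with ratios of 5.32 and 6.37, then 10.7 and 6.81, and then 6.74 and 4.45. The P7 ratio lay below all 6 lists and the adult ratio above all 6. As a share of both arms, 5p made up 14.2%, 11.3%, 13.9%, 31.4% and 4.93% of the reads.

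**Figure D1:**
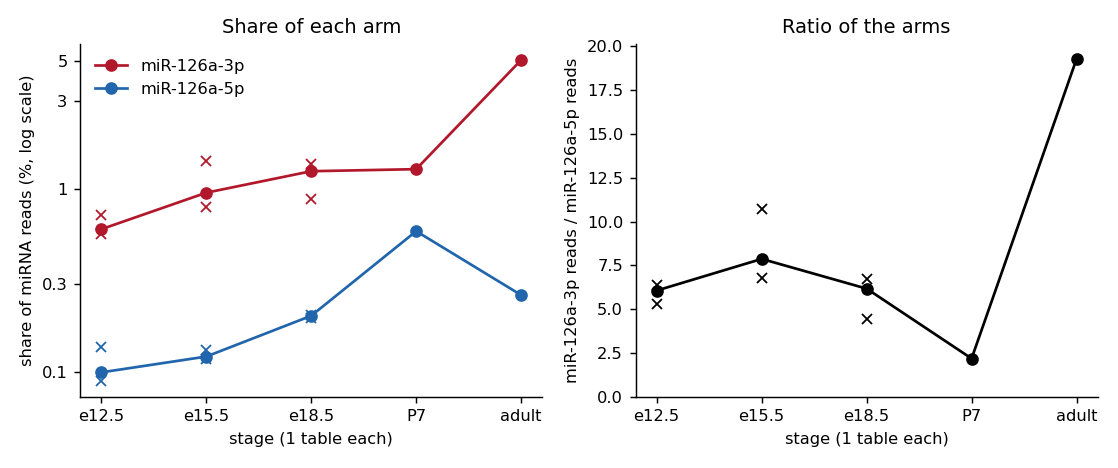
Share of miRNA reads of each arm in percent on a log scale (left) and reads of miR-126a-3p per read of miR-126a-5p (right) by stage, with 1 table a stage. Circles are the whole tables and crosses the 2 lists of each embryonic table; 3p is highest in adult liver at 5.05%, 5p at P7 at 0.585%, and the ratio runs from 2.18 at P7 to 19.3 in adult liver.

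Arm ratios of other hairpins also differed between these tables. Of the 50 hairpins with at least 10 rpm for both arms at P7 and in adult liver, 56% differed at least 2-fold in their arm ratio. The log2 difference for miR-126a was 3.14, and 3 of the 50, itself included, differed as much or more. From e12.5 to adult liver, 65.1% of 43 hairpins differed at least 2-fold. The log2 difference for miR-126a was 1.67 there, and 12 of the 43 differed as much or more, so in that span it was not among the most extreme.

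The miRNAs with the most similar course over the 5 tables were not the same for the arms. Likeness was the root mean square difference of centred log2 levels over 5 tables, among 109 miRNAs above 1000 rpm in some table. For 3p the closest were miR-27b-3p (0.21), miR-26a-5p (0.46), let-7f-5p (0.48), miR-23b-3p (0.49) and miR-101b-3p (0.56). For 5p they were miR-199a-3p and miR-199b-3p (0.28 each), miR-143-3p (0.33), miR-30a-5p (0.36) and miR-30d-5p (0.38). The 2 miR-199 strands have nearly equal counts at every stage. The arms of miR-126a differed from each other by 1.0, which put 5p at place 30 in the order for 3p and 3p at place 38 in the order for 5p.

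The label of the arms as endothelial could be set only against the mRNA clusters of marker genes, because whole liver was sampled. Each of 27 endothelial markers had an mRNA cluster in at least 1 table, with 24, 19, 22, 26 and 26 of them in the order of age. Their summed reads were 174, 353, 522, 2018 and 2944 per 1000000 reads in clusters outside miRNA genes, the unit (also rpm) used wherever target reads are scaled. Reads at single sites are given as listed unless rpm is named. The vascular receptor gene Kdr had 14.1, 33.5, 66.04, 287 and 423 rpm. Single markers differed in course from P7 to adult liver, with Pecam1 at 103 and then 46.5 rpm and Ptprb at 159 and then 482. Clec4g, a marker of sinusoidal endothelium, was at 0 in the 3 embryonic tables, and Emcn was at 0 in every table except adult, with 11.4 rpm. Egfl7, the host gene, had 2.83, 5.56, 0, 29.6 and 27.0 rpm in mRNA clusters. Over the same tables the summed reads of 10 hepatocyte markers were 2005, 5613, 15512, 30636 and 54640 rpm. Those of 8 erythroid and blood markers were 66077, 78651, 92195, 55796 and 3805, and those of 7 mesenchymal markers were 200.4, 147, 289, 835 and 507. Which cells held either arm was not measured, and the part of these shifts in the arm levels was not tested.

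The more abundant arm did not have the more sites. Against the counts of 3p given above, 5p had 357, 194, 169, 295 and 202 distinct sites in the order of age. The 5p arm had more sites at each embryonic stage, 3p had more at P7, and in adult liver the counts were close. At e18.5 the order turned among sites of at least 7 matched bases (76 for 3p and 71 for 5p) and in the second list alone (82 and 77), and at e15.5 in the first list alone (16 and 15). In adult liver 5p had more sites of at least 7 matched bases (121 against 80) and 3p more sites of at least 20 reads (119 against 105). As a share of all sites, 3p had 0.0234%, 0.0338%, 0.0459%, 0.0536% and 0.0458%, and 5p 0.0340%, 0.0565%, 0.0531%, 0.0418% and 0.0482%. By number of sites 3p ranked 726 of 745 at e12.5 and 520 of 585 in adult liver, where it ranked 5 by reads. From e12.5 to adult liver, 16.9% of 478 miRNAs had a site share at least 1.5-fold higher. The fold was 1.96 for 3p, with 40 miRNAs above it, and 1.42 for 5p, with 101 above it.

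Reads on the sites of 3p did not mirror its level in adult liver. Between P7 and adult liver, where the 3p share was 3.95-fold higher, 83 of its sites outside miRNAs were listed in both tables. Their median log2 difference in rpm was -0.68, and 32 of the 83 were higher in adult liver. The median over 116047 sites of all miRNAs listed in both tables was 0.34. For 5p, whose share was lower in adult liver, the median over 49 such sites was 0.26. Between e12.5 and adult liver the medians were 1.24 over 52 sites of 3p, 1.98 over 34 sites of 5p and 1.44 over 78019 sites of all miRNAs. Only sites listed in both tables enter these medians, so sites found in 1 table do not count.

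The genomic regions of the sites separated the arms. Coding sequence held most of the mRNA sites of 3p, with 45.9%, 51.7%, 47.3%, 48.8% and 58.9% of its sites in the order of age. For 5p the coding share was 26.6%, 26.3%, 23.7%, 30.8% and 33.7%. The 3′UTR share was 18.3%, 16.4%, 15.1%, 19% and 17.7% for 3p and 31.9%, 37.1%, 28.4%, 35.3% and 28.2% for 5p. At each stage the interval of the difference excluded 0. It ran from -20.3 to -6.60 percentage points at e12.5 and from -18.6 to -2.18 in adult liver for the 3′UTR. A site may carry several annotations, so the shares of one arm can add up to more than the whole.

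Over the 5 tables joined, 17.2% of the 3p sites and 32% of the 5p sites lay in 3′UTRs, a difference of -14.9 points with an interval from -18.9 to -10.7. The coding shares were 47.7% and 25.5%, a difference of 22.2 points with an interval from 17.6 to 26.8. Sites of all miRNAs had 3′UTR shares between 20.01% and 25.8% and coding shares between 34.6% and 52.8%, so for coding sequence 3p lay above the value of its own table at every stage and 5p below it. The interval of 3p reached that value at e18.5, P7 and adulthood, and that of 5p did not at any stage. Intergenic sites made up 13.8% for 3p and 25.4% for 5p.

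**Figure D2:**
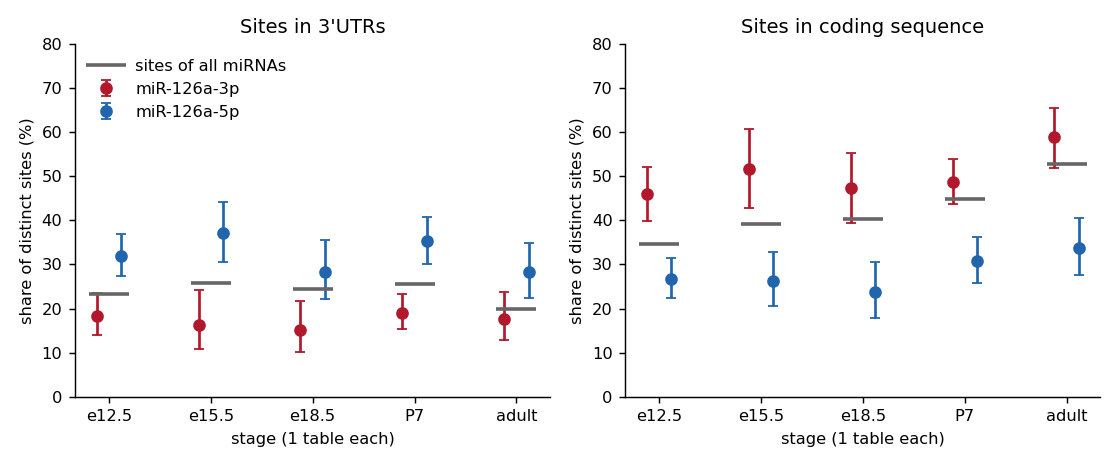
Share of distinct sites in 3′UTRs (left) and coding sequence (right) in percent by stage, with 1 table a stage; bars are 95% Wilson intervals and grey marks the sites of all miRNAs. In 3′UTRs 5p lies above 3p at each stage, for example 35.3% against 19% at P7, and in coding sequence the order is turned, 30.8% against 48.8%.

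The letters of the seed matches are themselves unevenly spread over mRNAs, and these values moved with the regions. In the longest coding transcripts of 20987 genes of GENCODE, the 6-base match of 3p, GGTACG, occurred 4.58 times per 100 kb of coding sequence and 2.04 times per 100 kb of 3′UTR. The 6-base match of 5p, AATAAT, occurred 48.8 times per 100 kb of 3′UTR, 3.91 times its density in coding sequence. Only the sense strand was searched, and overlapping matches were counted. Of windows of 50 bases, 0.210% in coding sequence and 0.0926% in 3′UTRs held GGTACG, and 0.544% and 1.97% held AATAAT. The part of these frequencies in the region shares was not tested.

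The types of seed match also differed between the arms. A 6mer pairs with bases 2 to 7, a 7mer-m8 with bases 2 to 8, and a 7mer-A1 or 8mer adds an A opposite base 1. Over the joined tables, 31.1% of the 3p sites were 7mer-A1 against 9.82% of the 5p sites, a difference of 21.3 points with an interval from 17.4 to 25.2. The order was turned for 7mer-m8, with 8.65% against 26.9%, and for 8mers, with 4.18% against 10.7%. These orders held in each of the 5 tables. The share of 6mers was 56.1% for 3p and 52.6% for 5p, and the interval of that difference, from -1.43 to 8.25 points, included 0. By stage the 6mer share was 62.2%, 50.9%, 47.9%, 46.2% and 58.3% for 3p and 56.6%, 49.5%, 58.0%, 49.5% and 40.1% for 5p, so the order turned between stages. The interval of the difference excluded 0 in adult liver and included it at the other stages. Among the sites of all miRNAs, 16.3% to 16.9% were 7mer-A1 and 22.7% to 23.3% were 7mer-m8.

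The listed folding energies, more negative for a more stable duplex, set the arms further apart. The median for 3p was -9.55, -10.1, -9.90, -10.1 and -10.5 in the order of age, close to the medians of all miRNAs between -10.7 and -9.80. For 5p it was -3.40, -2.80, -2.30, -3.60 and -3.70. In every table the upper quartile of 3p lay below the lower quartile of 5p. The median conservation score, from 0 to 1, was 0.762, 0.851, 0.760, 0.808 and 0.808 for 3p and 0.681, 0.491, 0.333, 0.411 and 0.645 for 5p. The score of 3p was the higher in all 5 tables.

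**Figure D3:**
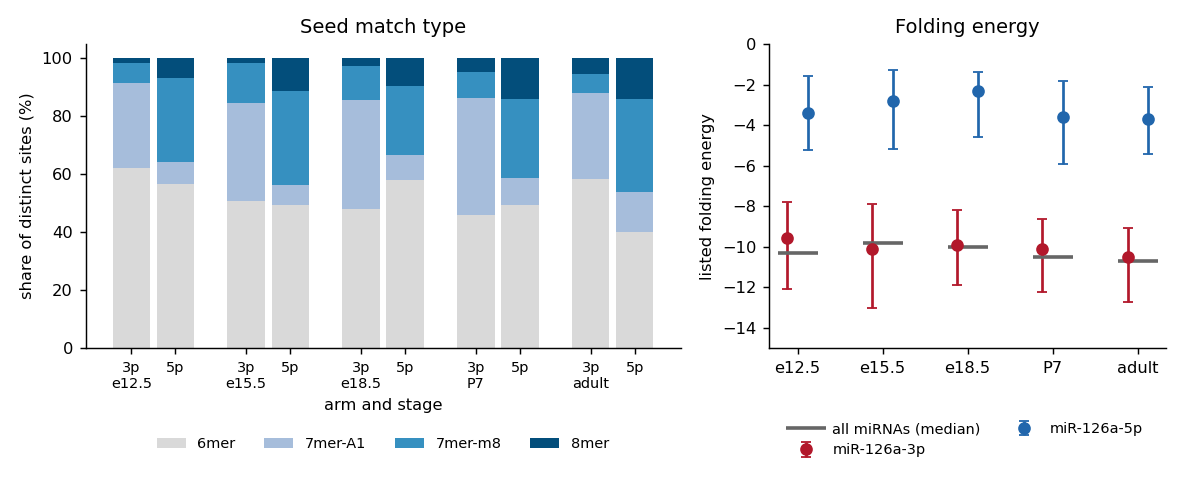
Share of distinct sites by type of seed match for each arm and stage (left, stacked to the whole), and the listed folding energy of the duplexes by stage (right), with points at the median and bars from the lower to the upper quartile. The 7mer-A1 class is larger for 3p (40.1% against 9.15% at P7), and the 3p duplexes lie near -10.1 where those of 5p lie near -3.60 at P7.

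Most sites of both arms were seen at 1 stage. The same share was not computed for the sites of all miRNAs, so these counts have no background beside them. Of the 717 sites of 3p, 515 were listed in 1 table and 202 (28.2%) in 2 or more, and of the 927 sites of 5p, 734 were listed in 1 and 193 (20.8%) in 2 or more. All 5 tables listed 16 sites of 3p and 5 of 5p, and 1 of each lies in the miR-126a hairpin itself. By gene, 119 genes had a 3′UTR site of 3p in some table, of which 40 had one in 2 or more tables and 6 in all 5. For 5p there were 296 genes, of which 78 had one in 2 or more tables and none in all 5. These were 0.830% and 2.06% of the 14345 genes with any mRNA cluster.

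**Figure D4:**
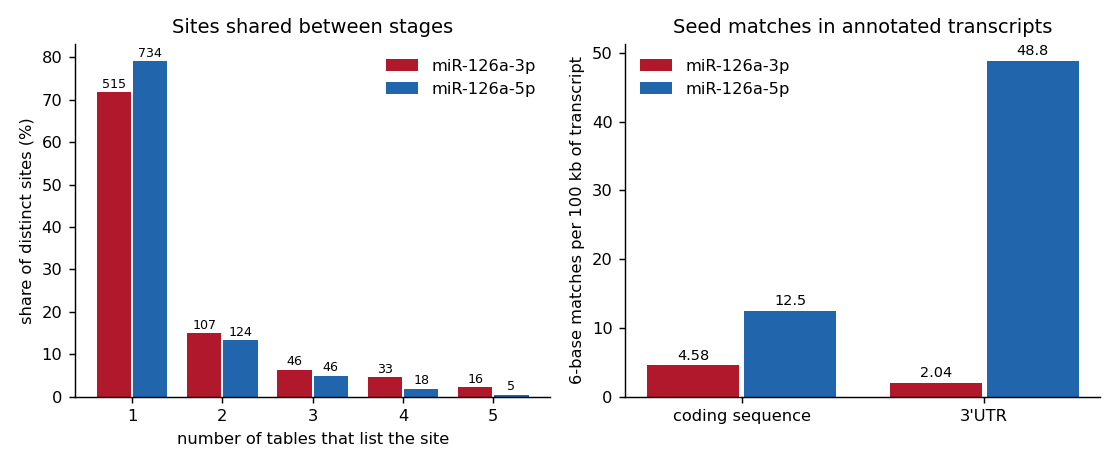
Share of the distinct sites of each arm by the number of tables that list them (left, counts above the bars), and matches of the 6-base seed complement per 100 kb of annotated coding sequence and 3′UTR (right). Sites listed in 1 table are the majority for both arms, 515 of 717 and 734 of 927, and the 5p match is found 48.8 times per 100 kb of 3′UTR against 2.04 for 3p.

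Among the 3′UTR sites of 3p, Adam9 and Vcam1 are published targets and were listed at every stage. Adam9, a membrane metalloprotease that sheds cell surface proteins, had 156, 120, 281, 393 and 136 reads at its 7mer-A1 site. Scaled, these were 7.48, 14.5, 43.6, 80.9 and 27.2 rpm, highest at P7. Vcam1, the adhesion molecule, had 220, 46, 182, 120 and 115 reads at a 7mer-m8 site, or 10.6, 5.56, 28.2, 24.7 and 23.0 rpm. Both were scaled higher in adult liver than at e12.5, as were 58410 of the 78019 sites of all miRNAs listed at both stages. Neither was highest in adult liver, where 3p itself was.

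Other genes of the 3p arm had a 3′UTR site in every table as well. Sgpp1, a phosphatase of sphingosine 1-phosphate, had 131, 17, 155, 495 and 145 reads, with the most at P7. Ttc3, an E3 ubiquitin ligase, had 147, 31, 214, 317 and 20 reads at a site annotated as coding sequence or 3′UTR. Aff4, a scaffold of the super elongation complex, had 87, 66, 281, 17 and 36 reads, with the most at e18.5. Slc37a3, of the family of sugar phosphate transporters, had 40, 24, 13, 272 and 46. No course was common to these 6 genes, since 4 had their highest scaled reads at P7 and the other two at e18.5.

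The sites of 4 further genes in the 3′UTR group were listed in all tables but one. Golph3, a Golgi protein that binds phosphatidylinositol 4-phosphate, had 156, 0, 207, 160 and 111 reads. Rora, a nuclear receptor, had 0, 83, 224, 108 and 34, and Tra2b, a splicing factor, had 111, 29, 0, 7 and 28. The gene 0610010F05Rik had 173, 0, 73, 37 and 54. A 0 means that the table lists no such site, and the lowest listed read number is 5.

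In coding sequence, the leading sites of 3p fell in genes of varied function. Zfp106, a zinc finger protein, had 306, 105, 8, 131 and 29 reads. Huwe1, an E3 ubiquitin ligase, had 140, 54, 85, 20 and 43. Ndufa2, a subunit of respiratory complex I, had 104, 13, 118, 44 and 24, and the predicted gene Gm12258 had 255, 115, 60, 82 and 10. The Ttc3 site named above is the other one of the 5.

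The leading 3′UTR sites of 5p were each listed in 3 or 4 tables. Tpm1, a tropomyosin, had 139, 223, 154, 16 and 0 reads. Zfp36l2, which binds AU-rich elements in mRNAs, had 142, 206, 77, 25 and 0, at a fragment that 1 further site with the same reads shares. Sp3, a transcription factor, had 168, 182, 7, 81 and 0 at an 8mer, and Apob, the apolipoprotein of secreted lipoproteins, had 35, 28, 96, 28 and 0 at a site also annotated as coding sequence. Serinc5, a membrane protein, had 44, 14, 6, 0 and 10 reads.

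Among the 5p sites listed in 3 tables was F2r, a thrombin receptor of endothelium, with 537, 576, 0, 0 and 12 reads. Tmem167 had 748, 66, 0, 34 and 0 reads, and Btg2, an antiproliferative gene, had 46, 110, 196, 0 and 0. Arid1a, a subunit of the SWI/SNF remodelling complex, had 236, 0, 72, 50 and 0. The 5p site of Adam9, an 8mer, had 0, 45, 107, 88 and 0 reads. Of the 10 leading 3′UTR sites, 2 of 5p and 10 of 3p were in the adult table, but they were ranked by the number of tables that list them, which largely sets this count for 3p. Over all genes the order was the other way, with a 3′UTR site of 5p in 123, 72, 48, 104 and 55 genes and one of 3p in 45, 19, 22, 71 and 34 genes in the order of age.

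**Figure D5:**
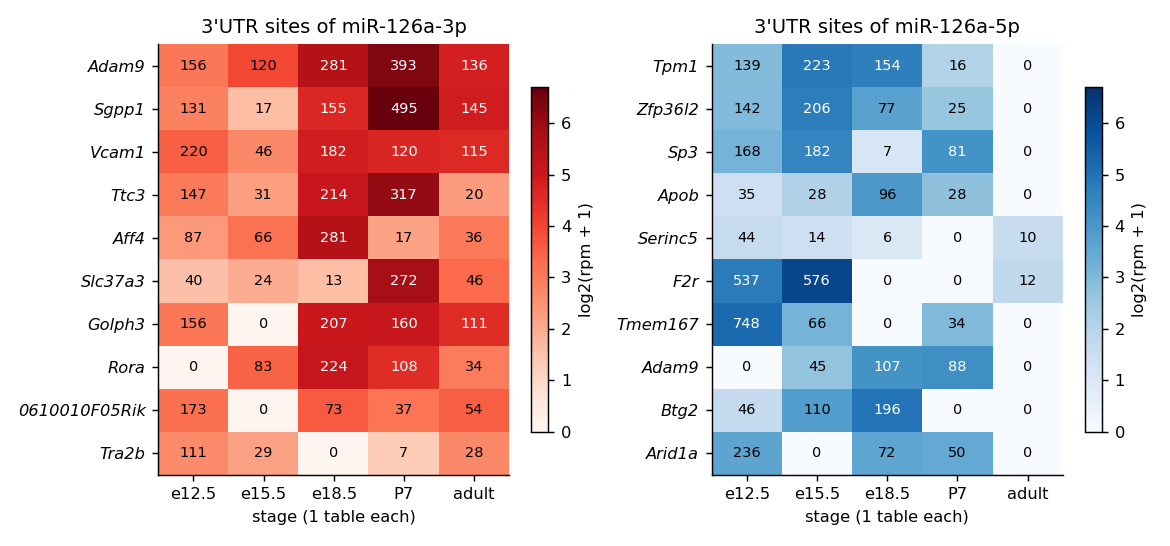
Reads at the 10 leading 3′UTR sites of miR-126a-3p (left) and of miR-126a-5p (right) by stage, with 1 table a stage. The numbers are the listed reads and the colour is log2 of rpm (of cluster reads outside miRNAs) after adding 1; all 10 sites of 3p have reads in adult liver, and 2 of the 10 of 5p do, Serinc5 with 10 and F2r with 12.

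The coding sites of 5p listed in the most tables differed in course. Ahsg, the plasma glycoprotein fetuin-A made by hepatocytes, had 88, 369, 4124, 2102 and 3091 reads. Scaled, these were 4.22, 44.6, 639, 433 and 617 rpm. Ltn1, an E3 ligase of ribosome quality control, went the other way with 1556, 392, 355, 16 and 0 reads. Cltc, the clathrin heavy chain, had 48, 180, 17, 106 and 228, and Lyst, a regulator of lysosomal traffic, had 33, 99, 5, 64 and 41. The reads of a cluster follow the amount of its mRNA as well as Ago binding, and mRNA levels were not analysed here.

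Of 24 published targets of miR-126-3p, all of which had some mRNA cluster, 8 had a 3′UTR site of 3p in at least 1 table. They were Adam9 and Vcam1 in 5 tables, Itga6 and Slc7a5 in 2, and Spred1, Crk, Cxcl12 and Tsc1 in 1, where 0.830% of all genes had one. Slc7a5, a transporter of large neutral amino acids, had 41 reads at e12.5 and 64 at P7. Itga6, a laminin receptor subunit, had 40 at e12.5 and 85 at e18.5, at a site also annotated as coding sequence. Spred1 had 23 reads at P7 at a 7mer-A1 site, and Pik3r2 had no site. Published targets are mostly found through their seed matches, so this list is not independent of the letters searched for.

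Of 6 published targets of miR-126-5p, 2 had a 3′UTR site of 5p, Adam9 in 3 tables and Dlk1 in 1, where 2.06% of all genes had one. The Dlk1 site had 25 reads, at e15.5, at a fragment that 1 further site with the same reads shares. Adam9 and Cxcl12 stand on both published lists. Of 50 genes from the VEGF receptors to PI3K and ERK, 5 had a 3′UTR site of 3p (Pik3cd, Spred1, Nf1, Crk and Gab1) and 2 a coding site (Pik3r1 and Braf), each in 1 table. Over all genes, 2.33% had a coding site of 3p and 1.55% one of 5p, so the 2 of 50 are near the background. For 5p, 2 had a 3′UTR site, Flt4 with 29 reads at e18.5 and Crk with 33 at e12.5. These genes and the single-table targets above were named after their values were seen. None of the 27 endothelial markers had a 3′UTR or coding site of 3p, where 0.830% and 2.33% of all genes had one, so a count of 0 among so few genes is near the background. A 3′UTR site of 5p was listed for 2 of them, Flt4 and Oit3, against 2.06% of all genes.

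Some genes carried sites of both arms. In 3′UTRs these were 7 genes. They made up 5.88% of the 3p genes, where 2.06% of all genes had a 5p site, and 2.36% of the 5p genes, where 0.830% of all genes had a 3p site. Adam9 was the one with both in 3 or more tables, with its 3p and 5p sites together at e15.5, e18.5 and P7. Golph3 followed with both at P7 and in adult liver, where its 5p site had 16 and 44 reads. In coding sequence 11 genes had both, or 3.29% of the 3p genes and 4.93% of the 5p genes, where 1.55% of all genes had a 5p site and 2.33% a 3p site. These differences from all genes were not tested.

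A seed match does not prove which miRNA held a fragment. Of the clusters with a 3p site, 43 of 277, 17 of 124, 24 of 173, 17 of 379 and 13 of 192 also held a site of one of the 10 most abundant other miRNAs. These were 15.52%, 13.7%, 13.9%, 4.49% and 6.77%, where among all clusters the shares were 9.63%, 13.3%, 15.05%, 16.1% and 16.6%. The 3p share lay above that of all clusters at e12.5, with an interval from 11.7% to 20.3%. It lay below at P7, with an interval from 2.82% to 7.07%, and in adult liver, from 4.0% to 11.2%, and at e15.5 and e18.5 the interval included the value of all clusters. For 5p the shares were 8.44%, 11.9%, 8.15%, 9.15% and 13.4%, each below that of all clusters, with intervals that reached it at e12.5, at e15.5 and in adult liver.

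The hairpin of miR-126a entered the tables as its own target. The arms are complementary, so the cluster on the 3p arm was listed as a 7mer-m8 site of 5p at chr2:26591414-26591420 with 153077, 95543, 96613, 153681 and 1155824 reads. The cluster on the 5p arm was listed as a 6mer site of 3p at chr2:26591378-26591383 with 25206, 12122, 15582, 69979 and 59599 reads. In adult liver the first made up 99.9% of the 3p reads given above and the second 99.3% of the 5p reads. These entries were left out of the gene counts and of the reads on sites.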

How the data were processed

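The 5 deposited tables list miRNA-target interactions of Ago HITS-CLIP in mouse liver. The authors trimmed reads with the FASTX-Toolkit, aligned them by Bowtie (version not given in the sources used here) to mm10 and miRBase precursors, and merged overlapping reads into clusters that were searched for seeds. The labels also name mm9, but all listed fragments on placed chromosomes, 716 for 3p and 922 for 5p, were found in GRCm38 at their positions. The deposited read column is a signal, whole numbers of at least 5 that the authors did not scale. Deposited conservation and folding energy are scores of unstated method. The number in each interaction name is not explained by the authors and was taken as the miRNA read count, since it nearly equals the reads on that arm of the hairpin. These numbers summed to between 7781484 and 25546696 per table. Starts in the tables count from 0 and were shifted to count from 1.

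The arms, gene lists and markers were chosen with earlier results of these data known. For each arm, the text names the 10 genes with a 3′UTR site and the 5 with a coding site at one position in the most tables, ties ordered by scaled reads, as well as genes with 3′UTR sites of both arms in 3 or more tables and members of the gene lists in 2 or more. Whether the embryonic tables pool libraries is not known, and replicate libraries were not analysed here. Target reads were scaled to cluster reads outside miRNAs, which were 20.1% to 50.0% of all cluster reads. Intervals and changes were tested on simulated data. Alternatives covered the miRNA total, the lists, read and seed minimums and the region rule. Python 3.11.15, pandas 2.3.3, SciPy 1.17.1, pysam 0.24.0 and matplotlib 3.10.9 were used.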

Additional observations from a re-analysis of the deposited data

How the results depend on the processing

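No paired analysis was possible because each stage has 1 sample. No alternative turned the direction of the differences in level, ratio or region share below, and 44 of 76 values moved beyond counting error or 1.5-fold. The log2 difference from e12.5 to adult liver was 2.65 for 3p and 0.98 for 5p with the numbers of copies added up, 4.07 and 2.40 over the total reads of the libraries, 2.81 and 0.95 with the first lists alone, and 3.15 and 1.56 with the second. From P7 to adult it was 1.80 and -1.34 with copies added up, and 2.32 and -0.83 over total reads. The log2 arm ratio in the first and second lists was 2.41 and 2.67, 3.43 and 2.77, and 2.75 and 2.16 for the 3 embryonic stages. At least 20 reads left 402 sites of 3p and 480 of 5p, at least 7 matched bases left 315 and 439, and the first lists gave 585 for 5p. With 7 matched bases, the 3′UTR share of 3p was 14.0%, the coding share of 5p 19.6%, and the differences -20.7 and 27.7 points. With sites under 1 mRNA region alone, the 3′UTR shares were 21.6% and 56.0% (-34.4 points) and the coding shares 71.3% and 42.1% (29.2 points). With mRNA sites as the whole they were 26.3% and 57.8% (-31.4 points), and 73.2% and 45.9% (27.3 points). Genes with a 3′UTR site numbered 43 for 3p and 158 for 5p with 7 matched bases, 40 and 78 in at least 2 tables, and 174 for 5p with the first lists. With the first lists, the sites of Adam9 (3p), Ndufa2 and Ahsg were in 3 tables, those of Slc37a3, Tra2b, Zfp106, Tpm1, Apob, Serinc5 and Lyst in 2, those of Btg2, Slc7a5 and Itga6 in 1, and the 5p sites of Crk, Dlk1 and Pura in none. With the second lists, those of Itga6 and Glrx2 (3p) were in 1 and those of Cxcl12 and Pik3cd (3p), Flt4 (5p) and Celf1 (both arms) in none. At least 20 reads left the 3p sites of Nf1, Braf, Tsc1, Glrx2 and Ube4b in no table, and those of Serinc5, Golph3 and Ube4b (5p) and Pura (3p) in 1. The part of depth in the counts by stage was not tested, and reads at 5 to 20 rest on few molecules. The cause of these moves was not tested.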

Other observations

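The antisense strand of the hairpin gave a small signal. The minus strand at chr2:26591366-26591372 was listed as a 7mer-m8 site of 5p in the mature strand miR-126b-3p, with 74, 0, 99, 43 and 75 reads in the order of age, where the sense arms had at least 12122.

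Most of the sites with the highest reads for 3p outside the hairpin lay in genes not described above, apart from those of Sgpp1 (495 reads) and Adam9 (393) at P7. The coding site of Ank1, the ankyrin of the red cell membrane, had 12290, 6743 and 1368 reads in the 3 embryonic tables and was not among the 5 highest at P7 or in adult liver. There the site within an intron of Pkd1 that overlaps Gm24589 led with 2184 and 2189 reads. It was followed by Slc40a1, the iron exporter ferroportin, with 1216 and 711. The linker histone genes Hist1h1c, Hist1h1d and Hist1h1e each had 3998 reads in the first table and 1208 in the next. These counts are equal between the genes, so which of them was bound is uncertain. In adult liver Abcb11, the bile salt export pump of hepatocytes, had 391 reads and Met, the receptor of hepatocyte growth factor, 156. For 5p, a second coding site of Ahsg had 1367 reads at P7 and 2549 in adult liver.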
